A study of Mus musculus with 137 samples.

Results

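The interleukin-1 family cytokines Il1a, Il1b and Il18, their soluble antagonists Il1rn and Il18bp, and the inflammasome genes Nlrp3, Pycard, Casp1, Casp4 and Gsdmd were followed in mouse bone marrow-derived macrophages that lack Beclin1 or carry an altered form of it. These 10 genes were chosen by symbol, with earlier results of these data known, out of 34573 symbols in the count tables. All 10 were present, and all 10 passed the filter on low counts in each cohort, Il1a through its stimulated groups.

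The series has 3 cohorts. In KO1 and KO2, KO macrophages came from Beclin1 flox/flox mice with LysM-Cre and WT macrophages from Beclin1 flox/flox mice without Cre, so both genotypes carry the floxed alleles. LysM-Cre is made from the Lyz2 locus in myeloid cells, so the deletion is limited to cells that use that locus and need not be complete. In KI, F121A macrophages carried the F121A change in both Beclin1 alleles and were compared with WT littermates. Marrow of mice aged 7 weeks was grown for 7 days with the growth factor M-CSF at 20 ng/ml. Cells were then collected untreated (0 h) or after 6 h or 24 h with 100 ng/ml of the bacterial cell wall component LPS and 100 ng/ml of the cytokine IFN-gamma. Each KO1 group has 3 cultures, each the sum of 3 repeat libraries, each KO2 group has 8 libraries (7 for WT at 24 h) and each KI group has 6. The KO1 titles carry a number, read here as the culture, and a suffix, read here as the repeat library. The labels do not say that the KO2 and KI libraries came from separate mice or cultures, so their p-values may measure technical spread only.

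IL-1α and IL-1β, the products of Il1a and Il1b, bind a shared receptor that signals through MyD88 to NF-κB. IL-1β and IL-18 are made as inactive precursors and are cut by caspase-1, whereas the IL-1α precursor is already active when it leaves a damaged cell. The sensor NLRP3 joins the adaptor ASC, encoded by Pycard, into an inflammasome that activates caspase-1, and mouse Casp4 encodes the protease that binds LPS in the cytosol. Both proteases cut gasdermin D, encoded by Gsdmd, whose fragment forms the membrane pores of pyroptosis. Il1rn encodes the antagonist that occupies the IL-1 receptor without signalling, and Il18bp a secreted protein that binds IL-18. Stimulated macrophages are known to raise Nlrp3 and Il1b RNA in a priming step. RNA counts measure neither the later cutting of the proteins nor their release.

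Promoters are shown for the cytokine gene with the largest difference between genotypes (Il1a), for its neighbour on chromosome 2 (Il1b), for the antagonist gene of the same receptor (Il1rn) and for the gene with the most NF-κB-type matches (Casp4). Each is the 250 bases before an annotated start in RefSeq on GRCm38.p6, written 5′ to 3′ on the gene's strand, with capitals for matches to the motifs named next.
Il1a, chr2:129309973-129310222, minus strand: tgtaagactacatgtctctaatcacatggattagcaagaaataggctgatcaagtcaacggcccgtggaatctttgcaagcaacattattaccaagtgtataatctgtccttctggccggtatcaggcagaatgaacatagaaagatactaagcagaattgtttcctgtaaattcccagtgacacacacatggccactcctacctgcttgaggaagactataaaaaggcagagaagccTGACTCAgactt
Il1b, chr2:129371140-129371389, minus strand: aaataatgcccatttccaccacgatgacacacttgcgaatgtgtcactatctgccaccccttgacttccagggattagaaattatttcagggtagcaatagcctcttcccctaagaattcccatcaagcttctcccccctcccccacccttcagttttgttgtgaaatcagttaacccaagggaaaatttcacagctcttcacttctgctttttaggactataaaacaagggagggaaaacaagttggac
Il1rn, chr2:24336610-24336859, plus strand: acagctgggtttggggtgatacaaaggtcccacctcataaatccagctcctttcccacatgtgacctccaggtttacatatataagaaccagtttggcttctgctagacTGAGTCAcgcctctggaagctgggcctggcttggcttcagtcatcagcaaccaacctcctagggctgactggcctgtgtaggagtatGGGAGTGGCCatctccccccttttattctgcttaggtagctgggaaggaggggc
Casp4, chr9:5308599-5308848, plus strand: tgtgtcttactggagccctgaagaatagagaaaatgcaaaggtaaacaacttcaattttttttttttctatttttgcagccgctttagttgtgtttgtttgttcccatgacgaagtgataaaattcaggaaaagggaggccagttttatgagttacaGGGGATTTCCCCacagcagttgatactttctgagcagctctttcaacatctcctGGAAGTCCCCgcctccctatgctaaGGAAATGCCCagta
RefSeq entries were found for 9 of the 10 genes, all but Gsdmd. Both strands were searched for kappaB (GGGNNNNNCC), AP-1 (TGANTCA), C/EBP (TTGCNNAA), ISRE (GAAANNGAAA) and GAS (TTCNNNGAA), which 45.8%, 6.75%, 9.56%, 2.98% and 7.02% of 32851 mouse promoters of the same length held. The Il1a window held an AP-1 match that begins at -12, and the Il1rn window shown a kappaB match at -54 and an AP-1 match at -141, counted back from the annotated start. Il1rn has other annotated starts. Its window from 24345121 held a kappaB match at -51, and its window from 24345041 held no match. The Casp4 window shown held 5 kappaB matches, of which 3 overlap each other, and so did the Casp4 window from 5308610, which overlaps it. No match was found in the Il1b window, and no ISRE or GAS match in any window of the 9 genes. A match describes letters and is not a measured binding site.

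On GRCm38 (GENCODE vM21), Il1a spans 129299610 to 129309972 and Il1b 129364570 to 129371139 on the minus strand of chromosome 2, and Il1rn 24336853 to 24351494 on its plus strand. Casp1 (5298517 to 5307265) and Casp4 (5308828 to 5336783) lie next to each other on the plus strand of chromosome 9, which also carries Il18 (50554827 to 50581840). Pycard (127989708 to 127993867) and Il18bp (102014885 to 102018690) are on the minus strand of chromosome 7, Nlrp3 (59541568 to 59566956) on the plus strand of chromosome 11 and Gsdmd (75862327 to 75867408) on the plus strand of chromosome 15. Reads carried no strand, so reads in the 11.2% of Il1a exon bases shared with its antisense gene Gm14023 cannot be told apart. Over all libraries Gm14023 held 952, 894 and 581 counts in KO1, KO2 and KI, beside 374735, 202631 and 219012 for Il1a. Pycard exons overlap those of Gm45205 over 12.8% of their bases.

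Levels are CPM, a gene's count scaled to a library total of 1000000 counts in genes, without further scaling. Log2 fold changes come from edgeR, are mutant over WT unless a time is named, and carry the standard error after the ± sign. Calls need an adjusted p below 0.05, adjusted across every gene in the fit. Where groups have more than 5 samples, 3 values in a row are the lowest, the median and the highest, and in KO1 they are the 3 cultures in rising order. A library held between 1898574 and 6579185 counts in KO1, between 1448218 and 15627379 in KO2 and between 3574158 and 11786453 in KI. Becn1 fell in KO macrophages at 0, 6 and 24 h, with log2 fold changes of -1.51, -1.52 and -1.41 in KO1 and -3.28, -3.31 and -2.63 in KO2, and was not called in F121A macrophages (-0.08, 0.05 and -0.04). In KO2, every KO library had reads of the Y-linked gene Ddx3y (5.33 to 24.3 CPM) and at most 1.62 CPM of Xist, whereas every WT library had 70.0 to 339.9 CPM of Xist. Genotype and sex therefore cannot be told apart in KO2. Libraries of both genotypes carried Ddx3y in KO1 and Xist in KI. The samples are bulk, so fewer cells of a type and less RNA per cell cannot be told apart.

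Stimulation raised the RNA of nearly all 10 genes within 6 h, in mutant and WT macrophages alike. At 6 h against 0 h, 9 genes were higher in KO1 KO macrophages, 10 in KO2 KO and 10 in F121A, against 10 in the WT macrophages of each cohort. Of all genes tested, 25%, 33.8% and 36.6% were called higher in the mutants, against 25.7%, 32.5% and 36.7% in WT of KO1, KO2 and KI. The gene not called was Pycard in KO1 KO macrophages (0.30 ± 0.25).

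The receptor ligands and the antagonist of their receptor moved furthest. Il1b changed by 9.05 ± 0.73, 12.56 ± 0.28 and 9.41 ± 0.35 on the log2 scale in KO1 KO, KO2 KO and F121A macrophages, against 10.64 ± 0.78, 12.97 ± 0.29 and 11.07 ± 0.37 in the WT of each cohort. Il1a changed by 10.69 ± 1.10, 12.87 ± 0.25 and 9.82 ± 0.25 in the mutants, against 11.59 ± 1.14, 12.45 ± 0.27 and 12.40 ± 0.30 in WT. Il1rn changed by 7.81 ± 0.54, 10.07 ± 0.18 and 10.02 ± 0.31 in the mutants, against 7.66 ± 0.54, 11.11 ± 0.18 and 10.99 ± 0.32 in WT. For Il1a the resting level was near 0 counts in KO2 and in KI WT, so the size of these changes depends on very few reads. Resting repeats of KO1 WT culture S33 held 0 to 1.17 CPM of Il1a. The inflammasome genes moved less. In WT of KO1, KO2 and KI, Nlrp3 changed by 5.04, 4.47 and 3.82, Casp4 by 4.42, 5.21 and 5.83, Casp1 by 3.08, 3.23 and 3.02, Gsdmd by 1.86, 2.70 and 2.16 and Pycard by 1.19, 1.77 and 1.83.

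Between 6 h and 24 h the genes parted. Il18bp was higher at 24 h in 5 of the 6 combinations of cohort and genotype, by 1.19 ± 0.13 in KO2 KO and 1.60 ± 0.09 in F121A, against 1.92 ± 0.13 and 1.70 ± 0.09 in their WT and 1.82 ± 0.67 in KO1 WT. In KO1 KO it was 1.43 ± 0.66 and not called. Pycard, Il18, Il1rn and Nlrp3 were lower at 24 h than at 6 h in all 6. Pycard fell by 1.75, 1.83 and 4.12 on the log2 scale in KO1 KO, KO2 KO and F121A, against 2.14, 2.17 and 3.34 in WT of KO1, KO2 and KI, and it was the gene that ended below its resting level in all 6, with log2 fold changes at 24 h against 0 h of -1.45, -0.65 and -1.66 in the mutants and -0.96, -0.40 and -1.52 in WT. Il1a took different courses. It changed by -0.68 ± 0.14 in KO2 KO against -2.60 ± 0.15 in KO2 WT, by -2.56 ± 0.77 in KO1 KO against -3.51 ± 0.80 in KO1 WT, whereas its difference was 0.25 ± 0.16 (not called) in F121A against 0.47 ± 0.16 in KI WT. Counted over the 10 genes, 7, 9 and 7 differed between 24 h and 6 h in KO1 KO, KO2 KO and F121A, against 9, 9 and 8 in WT, with 48.1%, 55.5% and 65.1% of all genes in the mutants and 54.6%, 59% and 65.4% in WT. Without culture S36 the KO1 KO count was 4, and without S34 the KO1 WT count was 5. The KO1 culture numbers recur at 0, 6 and 24 h, and the main fit has no term for them. Its KO1 p-values over time therefore take same-numbered samples as independent. Same-numbered samples met the rule for pairing only in KO1 KO between 6 h and 24 h. With the culture number as a block, 8 genes were called there, Il18bp among them (1.60, adjusted p = 0.00363).

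At 24 h against 0 h, 9 genes were higher and Pycard lower in every cohort and genotype. Genes called higher made up 19.9%, 27.7% and 33.9% of all genes in the mutants and 21.3%, 29.6% and 33.9% in WT. Genes called lower made up 18.5%, 30.6% and 32.4% in the mutants and 20.6%, 29.7% and 29.9% in WT. Time changes depend on the scaling. With library totals in place of edgeR's TMM factors, an alternative added after the data were seen, the median gene moved to between -0.92 and -1.37 at 6 h against 0 h, and Pycard in KO1 KO turned to -0.91 (adjusted p = 0.0237). Of the calls at 6 h against 0 h, 11.6%, 20.8% and 17.2% were then higher in the mutants of KO1, KO2 and KI and 15%, 19.9% and 17.7% in WT, against 45.1%, 45.5% and 49.1% in the mutants and 45.3%, 45.9% and 49.9% in WT with TMM. At 24 h against 0 h, 8.97% to 16.5% of calls in the mutants and at most 23.3% in WT were higher with library totals, and 47.5% to 51.8% and 50% to 53.1% with TMM. With library totals 7 genes of the 10 were still called higher in KO1 KO at 6 h and 8 in KO1 WT, and 10 in each KO2 and KI group. At 24 h against 0 h, 7 were higher in KO1 KO, 9 in KO2 KO and 8 in F121A, against 8, 9 and 8 in WT of KO1, KO2 and KI. The falls of Pycard, Il18, Il1rn and Nlrp3 between 6 h and 24 h were called in all 6 under that scaling too.

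**Figure D1:**
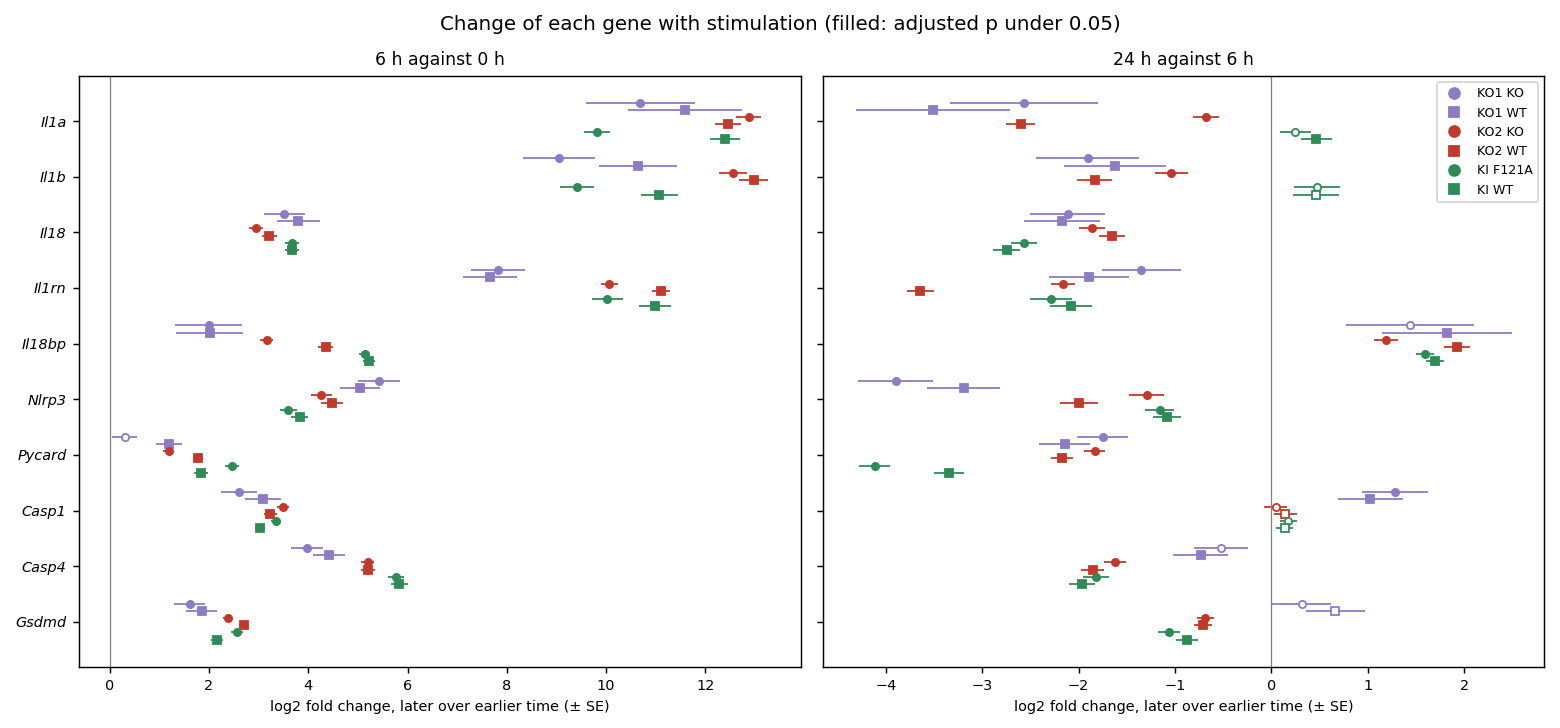
Log2 fold change (x axis, edgeR, bars are standard errors) of each of the 10 genes (y axis) at 6 h against 0 h and at 24 h against 6 h in the mutant and WT macrophages of KO1, KO2 and KI, with filled points for an adjusted p under 0.05. All 10 genes lie right of 0 in the first contrast, whereas in the second Il18bp lies right of 0 and Pycard, Il18, Il1rn and Nlrp3 lie left of it.

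Levels were compared between genes as CPM per kilobase of annotated exon, with the exons of all transcripts of a gene merged. The order of genes depends on these lengths, such as 1974 bases for Il1a and 5535 for Il1rn. At rest, Gsdmd and Casp1 stood at the top in KO2 and KI, with medians of 43.9 and 39.5 CPM per kilobase in KO2 KO against 33.9 and 40.4 in KO2 WT, and their library ranges overlapped in KO2. In KO1 the ranges of Il18bp, Casp1 and Gsdmd lay at the top in KO cultures and overlapped, and Casp1 led in WT cultures, with Pycard and Gsdmd after it. Il1a had the lowest median in each cohort and genotype, at 0.197 in KO2 KO against 0.0933 in KO2 WT. Its range overlapped that of the next gene in KO1 KO, KO2 WT and F121A. At 6 h and 24 h Il1b led in KO2 and KI in both genotypes, with a range that overlapped that of Il1rn in F121A at 6 h. At 24 h in KO2, Il1a (730.3) and Il1rn (549) came next in KO, with overlapping ranges and above Casp1 (315) and Il18bp (284), which overlapped each other. In KO2 WT at 24 h the order after Il1b was Casp1 (309), Il18bp (258) and Il1rn (244), neighbours with overlapping ranges, then Gsdmd (101) and Il1a (84.2), which overlapped each other as well. In KI at 24 h, Il1rn (831) stood above Il1a (505) in F121A, without overlap, whereas Il1a (879) and Il1rn (874) overlapped in WT.

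**Figure D2:**
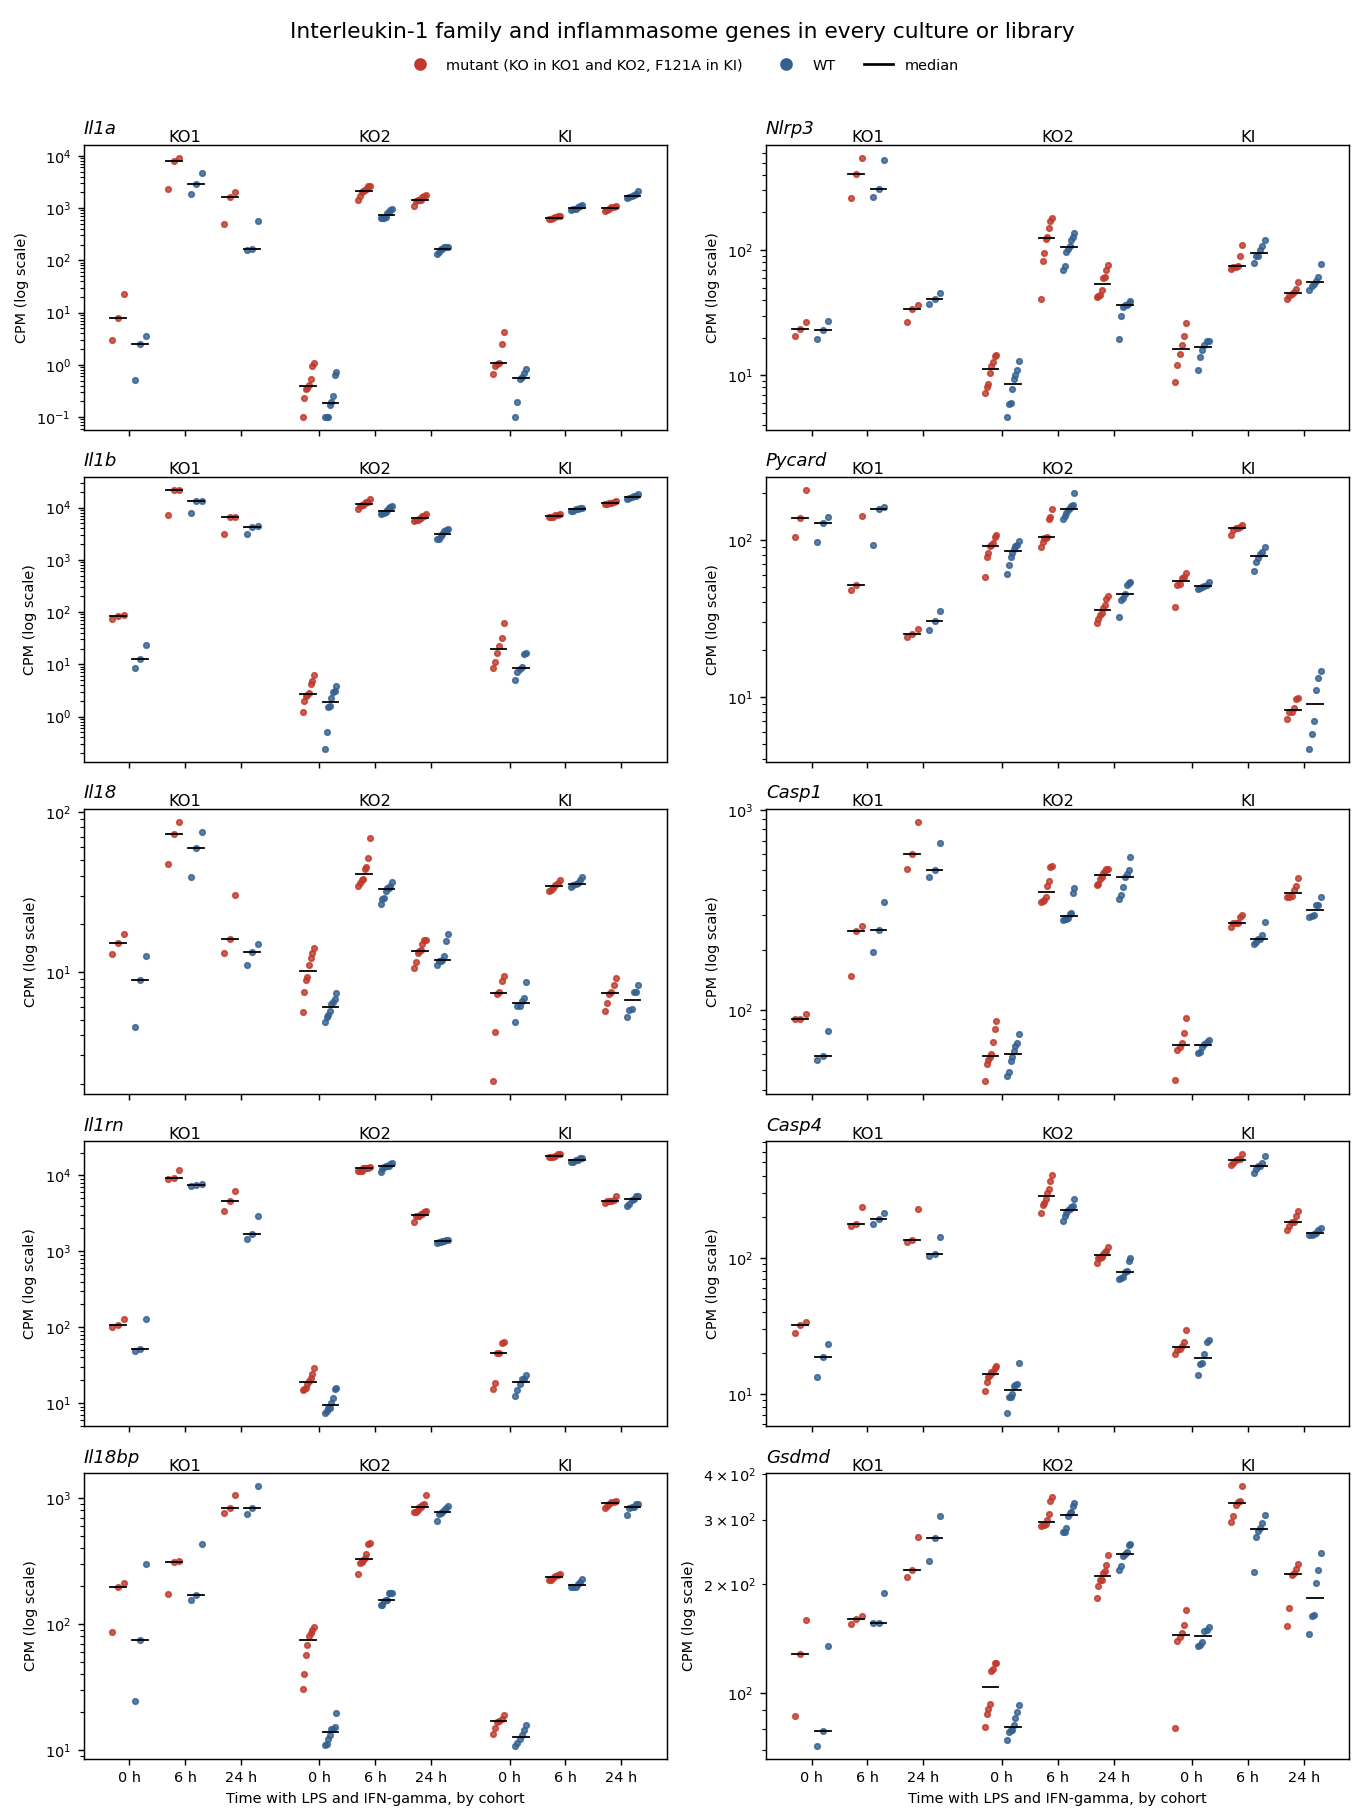
CPM (y axis, log scale) of the 10 genes at 0, 6 and 24 h (x axis) in each KO1 culture and each KO2 and KI library, mutant left of WT, with the median as a black line and values under 0.1 CPM drawn at 0.1. At 24 h the Il1a points of KO2 KO (1106 to 1773 CPM) lie above those of WT (134 to 184 CPM), and those of F121A (879 to 1110.3 CPM) lie below those of KI WT.

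Between genotypes, the call counts were unequal over cohorts and times. In KO2, 3 of the 10 genes were higher in KO and none lower at 0 h (3.84% of all genes were called higher and 4.45% lower), 2 were higher and 1 lower at 6 h (7.62% and 7.75%), and 5 were higher and 1 lower at 24 h (6.26% and 5.06%). In KI, 3 were higher in F121A and none lower at 0 h (2.37% and 0.574%), 2 were higher and 1 lower at 6 h (8.01% and 3.49%), and 1 was higher and 1 lower at 24 h (3.42% and 3.78%). In KO1, edgeR called 0 at each time, with 0.0219%, 0.0219% and 0.0073% of all genes called. There, 3, 1 and 2 of the 10 had an unadjusted p under 0.05 at 0, 6 and 24 h, and DESeq2 called 1, 0 and 0. Where groups are described below as standing apart, the share of all genes that did so was not counted. With 3 cultures a group in KO1, such a separation without a call is a description only. The scaling moved some of these counts. With library totals, 5 genes were higher and none lower in KO2 KO at 0 h (85.9% of calls over all genes were then higher, against 46.3% with TMM), and 6 were higher and 1 lower at 6 h (86.7% against 49.6%), with Il1b joining at both times, Gsdmd at 0 h and Casp1, Casp4 and Il18 at 6 h. In KI, 4 were higher in F121A at 0 h (91.7% against 80.5%), 1 higher and 1 lower at 6 h (58.5% against 69.7%), and 1 lower at 24 h (32.7% against 47.5%). One of the 3 KI calls at rest was Il1a, which passed the filter through its stimulated groups. With only the 2 groups compared in the fit, Il1a was not tested and KI had 0 calls at rest. The median log2 fold change of the 10 genes at 0, 6 and 24 h was 0.39, 0.16 and 0.27 in KO2, beside 0.01, 0.02 and -0.02 over all genes, 0.13, 0.20 and 0.07 in KI, beside 0.01, 0.02 and -0.0025, and 0.43, 0.26 and 0.30 in KO1, beside 0.01, 0.02 and 0.00. Because the 10 genes were chosen with earlier results of these data known, these medians and counts are descriptions and not a test of the family.

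**Figure D3:**
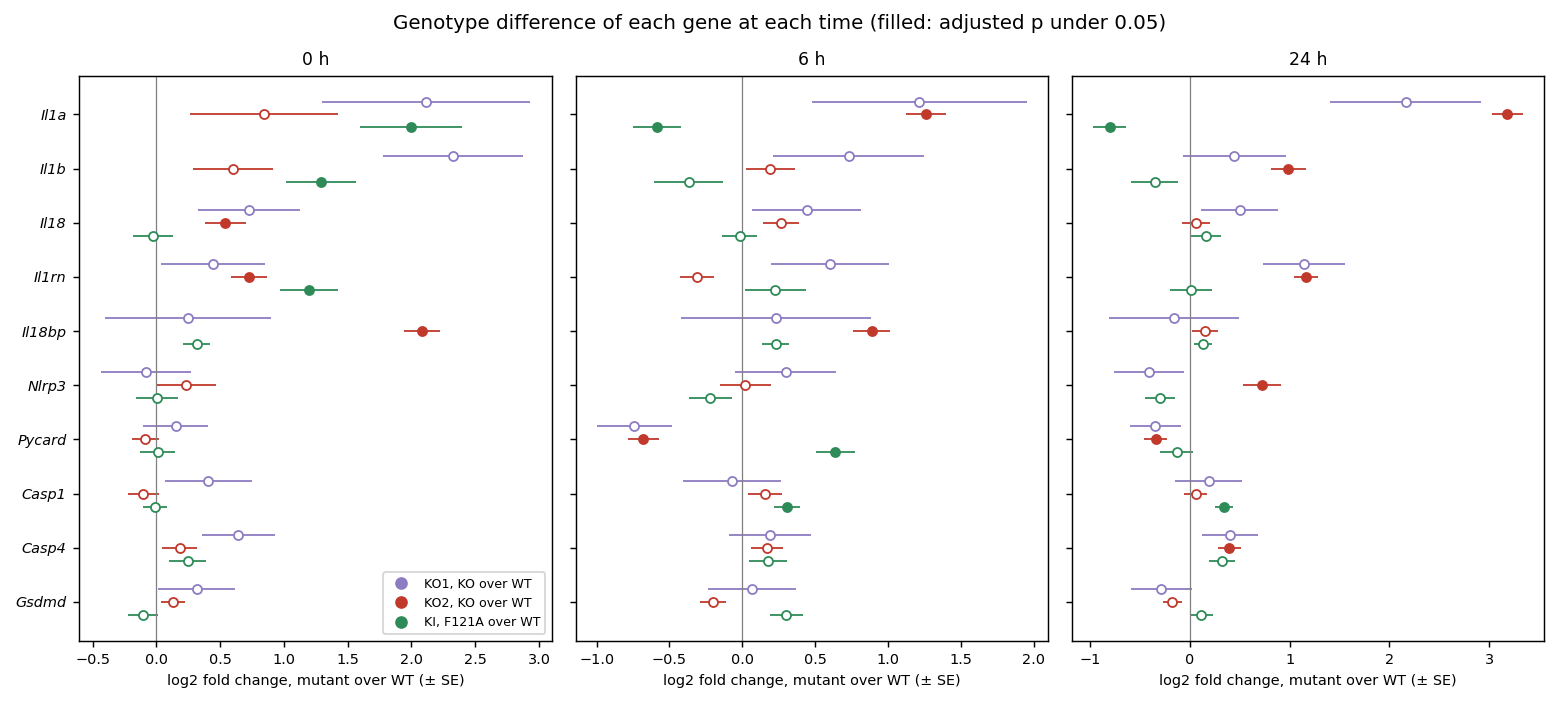
Log2 fold change of mutant over WT (x axis, edgeR, bars are standard errors) for the 10 genes (y axis) at 0, 6 and 24 h in KO1, KO2 and KI, with filled points for an adjusted p under 0.05. Il1a at 24 h lies at 3.18 in KO2 and at -0.80 in KI, and Pycard at 6 h lies at -0.68 in KO2 and at 0.64 in KI.

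Il1a, the IL-1α gene, had the largest genotype difference of the 10 genes, in KO2 at 24 h, where it was higher in KO, and it was lower in stimulated F121A macrophages than in their WT. In KO2 at 0 h it had 0 to 4 counts per library in KO against 0 to 3 in WT, too few to tell a difference (0.84 ± 0.58, adjusted p = 0.463). At 6 h it had 1398, 2151 and 2696 CPM in KO2 KO against 643, 747 and 941 CPM in WT, and at 24 h 1106, 1442 and 1773 CPM in KO against 134, 166 and 184 CPM in WT. All 8 KO libraries stood above every WT library at both times. The log2 fold change was 1.26 ± 0.14 (adjusted p = 3.0e-10) at 6 h and 3.18 ± 0.16 (adjusted p = 4.7e-24) at 24 h, 9.07-fold. Under every alternative run the 24 h value stayed between 3.17 and 3.20.

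In KI, Il1a was lower in F121A after stimulation, and its few reads at rest were more in F121A. At 0 h it had 0.678, 1.06 and 4.35 CPM in F121A, 5 to 35 counts per library, against 0, 0.551 and 0.839 CPM in WT, 0 to 4 counts, and 5 of 6 F121A libraries stood above every WT library. The log2 fold change was 1.997 ± 0.40 (adjusted p = 0.00164) in the fit over 6 groups. Il1a entered that fit through its stimulated groups, and with only the 2 resting groups it fell under the filter and was not tested. At 6 h it had 610.0, 656 and 720.3 CPM in F121A against 919, 1001 and 1162 CPM in WT, and at 24 h 879, 998 and 1110.3 CPM in F121A against 1579.6, 1735 and 2092 CPM in WT. The groups did not overlap at either time, and F121A was lower. The log2 fold changes were -0.59 ± 0.16 (adjusted p = 0.0126) and -0.80 ± 0.16 (adjusted p = 8.8e-04), and the 6 h call was lost when libraries were summed by replicate number (-0.57, adjusted p = 0.0506).

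In KO1, Il1a had 2.96, 8.002 and 22.7 CPM in KO cultures against 0.504, 2.53 and 3.60 CPM in WT at 0 h, 2340.1, 7891 and 9115 CPM in KO against 1900.0, 2923 and 4798 CPM in WT at 6 h, and 491, 1658 and 1989 CPM in KO against 159, 167 and 565 CPM in WT at 24 h. The groups overlapped each time. Culture S37 had the lowest KO level at 6 h and 24 h, whereas at 0 h it had the highest and S36 the lowest. The log2 fold changes of 2.11 ± 0.82, 1.21 ± 0.73 and 2.17 ± 0.76 were not called (adjusted p = 0.672, 0.997 and 0.615). With no filter on low counts the 0 h and 24 h values passed (adjusted p = 0.0017 and 1.05e-04).

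Il1b, the IL-1β gene, was called higher in KO2 KO at 24 h and in F121A at rest, where the F121A and WT libraries overlapped. In stimulated F121A macrophages its level lay below that of WT, without a call in the fit over 6 groups. In KO2 at 24 h it had 5635, 6177 and 7358 CPM in KO against 2473, 3169.9 and 3945 CPM in WT, with no overlap and a log2 fold change of 0.99 ± 0.18 (adjusted p = 3.5e-05). At 0 h and 6 h in KO2 the groups overlapped, at 1.26 to 6.35 CPM in KO against 0.239 to 3.93 in WT and 9232 to 14265 in KO against 7456 to 10478 in WT, and neither passed the test. In KI at rest it had 8.58, 19.4 and 60.6 CPM in F121A against 4.98, 8.55 and 16.8 CPM in WT, with overlap. The log2 fold change was 1.29 ± 0.27 (adjusted p = 0.00282), a call lost with only the 2 groups in the fit (adjusted p = 0.108) or with libraries summed by replicate number (0.0511). After stimulation F121A had 6494, 6963 and 7555 CPM at 6 h against 8673, 9412 and 9979 CPM in WT, and 11563, 12249.8 and 13478 CPM at 24 h against 14667, 16154 and 17878 CPM in WT. All 6 F121A libraries stood below every WT library at both times, although the fit over 6 groups, whose spread includes the resting libraries, made no call (-0.37 ± 0.24, adjusted p = 0.367, at 6 h, and -0.35 ± 0.24, adjusted p = 0.463, at 24 h). With only the 2 groups in the fit both passed (-0.41, adjusted p = 0.00773, and -0.37, adjusted p = 0.0136).

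In KO1, Il1b at rest had 74.5, 85.3 and 87.1 CPM in KO cultures against 8.66, 12.9 and 23.9 CPM in WT. All 3 KO cultures stood above all 3 WT cultures, and the log2 fold change of 2.33 ± 0.55 (adjusted p = 0.223) was not called by edgeR, whereas DESeq2 gave an adjusted p of 6.6e-04. The summed level of 12 neutrophil markers was 425 to 1473 CPM in these resting KO cultures against 259 to 317 CPM in WT, with none of the 12 at 0 throughout, and its part in the result was not tested. At 6 h and 24 h Il1b overlapped between KO1 genotypes, at 7092, 21209 and 21556 CPM in KO against 7803, 13343 and 13579 CPM in WT and 3154, 6651 and 6709.6 CPM in KO against 3079, 4162 and 4364 CPM in WT.

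Il18, whose product drives IFN-gamma production by lymphocytes, was called with genotype in KO2 at rest and in no other comparison. In KO2 at rest it had 5.58, 10.1 and 14.1 CPM in KO against 4.88, 6.003 and 7.37 CPM in WT, with overlap. Its log2 fold change of 0.54 ± 0.16 (adjusted p = 0.0231) was lost with no filter (adjusted p = 0.0576), with only the 2 groups fitted (0.0553) or with summed libraries (0.109). At 6 h and 24 h it was 34.3 to 68.95 CPM in KO against 26.4 to 36.5 in WT and 10.6 to 15.9 in KO against 11.1 to 17.1 in WT, not called. In KI its log2 fold changes lay between -0.03 and 0.16. In KO1 at rest it had 12.96, 15.2 and 17.3 CPM in KO against 4.53, 8.86 and 12.5 CPM in WT, without overlap and without a call (0.73 ± 0.40, adjusted p = 0.861). Single repeats of KO culture S37 ran from 4.43 to 20.4 CPM there, into the WT range.

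Il1rn, the receptor antagonist gene, was higher at rest in both KO2 KO and F121A macrophages, and higher at 24 h in KO2. In KO2 at 0 h it had 14.7, 18.7 and 29.3 CPM in KO against 7.30, 9.32 and 15.9 CPM in WT, and 5 of 8 KO libraries stood above every WT library. At 6 h the groups overlapped, at 11428, 12535 and 12744 CPM in KO against 11132, 13288 and 14490.5 CPM in WT. At 24 h it had 2446, 3036 and 3351 CPM in KO against 1294, 1349 and 1417 CPM in WT, with no overlap. The log2 fold changes were 0.73 ± 0.14 (adjusted p = 2.1e-04) at 0 h, -0.31 ± 0.12 (adjusted p = 0.0595) at 6 h and 1.16 ± 0.12 (adjusted p = 8.7e-11) at 24 h. DESeq2 called the 6 h value lower (-0.32, adjusted p = 0.0144).

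In KI at rest, Il1rn had 15.1, 45.4 and 64.5 CPM in F121A against 12.5, 19.2 and 23.5 CPM in WT, and 4 of 6 F121A libraries stood above every WT library. Its log2 fold change was 1.20 ± 0.23 (adjusted p = 9.3e-04), and with only the 2 groups fitted the adjusted p was 0.0564. At 6 h it had 17422, 17989 and 18980.1 CPM in F121A against 14859.5, 15979.7 and 17198 CPM in WT, with no overlap and no call (0.23 ± 0.21, adjusted p = 0.561), and at 24 h the groups overlapped (0.01 ± 0.21). In KO1 at 24 h it had 3407, 4663 and 6214 CPM in KO against 1463, 1685 and 2959.9 CPM in WT. All 3 KO cultures were higher there and at 6 h, with no call (1.14 ± 0.41, adjusted p = 0.623 at 24 h).

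Il18bp, the gene of the IL-18 binding protein, showed the largest genotype difference at rest in KO2. It had 30.4, 74.6 and 94.4 CPM in KO against 11.03, 13.9 and 19.5 CPM in WT at 0 h, and 252, 331 and 443 CPM in KO against 143, 156 and 177 CPM in WT at 6 h. Every KO library stood above every WT library at both times, with log2 fold changes of 2.08 ± 0.14 (adjusted p = 1.8e-17), 4.23-fold, and 0.89 ± 0.13 (adjusted p = 3.3e-07). At 24 h the groups overlapped, at 779.8, 858 and 1057 CPM in KO against 655, 779.9 and 869 CPM in WT (0.15 ± 0.13, adjusted p = 0.532). In KI at rest it had 13.4, 16.9 and 19.1 CPM in F121A against 10.8, 12.7 and 15.7 CPM in WT (0.32 ± 0.11, adjusted p = 0.110), and it was not called at 6 h or 24 h. In KO1 it spread over 87.2, 197 and 211 CPM in KO and 24.4, 75.1 and 301 CPM in WT at rest. The KO1 WT cultures alone covered the range of the KO cultures, and the sign of the KO1 difference changed at 0, 6 and 24 h with the culture left out.

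Among the inflammasome genes, the sensor Nlrp3 was higher in KO2 KO at 24 h. It had 41.9, 54.03 and 75.6 CPM in KO against 19.5, 36.4 and 39.1 CPM in WT, with no overlap and a log2 fold change of 0.73 ± 0.19 (adjusted p = 0.00621). At 0 h and 6 h the KO2 groups overlapped (0.23 ± 0.24 and 0.02 ± 0.18). In KI at 24 h it had 40.7, 45.3 and 55.3 CPM in F121A against 47.6, 55.4 and 78.04 CPM in WT (-0.30 ± 0.15, adjusted p = 0.270). In KO1 at 24 h the 3 KO cultures, at 26.8, 33.6 and 36.5 CPM, stood below the 3 WT cultures, at 36.8, 40.9 and 45.8 CPM, with no call (-0.41 ± 0.35, adjusted p = 0.878).

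Pycard, the adaptor gene, moved in opposite directions at 6 h. In KO2 it had 89.5, 104 and 157 CPM in KO against 136, 158 and 198 CPM in WT, and 6 of 8 KO libraries stood below every WT library. In KI it had 108, 119 and 124 CPM in F121A against 63.6, 79.04 and 90.4 CPM in WT, and all 6 F121A libraries stood above every WT library. The log2 fold changes were -0.68 ± 0.10 (adjusted p = 2.0e-06) in KO2 and 0.64 ± 0.14 (adjusted p = 9.6e-04) in KI. In KO1 at 6 h it had 47.8, 51.3 and 141 CPM in KO against 92.2, 156 and 163 CPM in WT, 2 of 3 KO cultures below every WT culture, and was not called (-0.74 ± 0.26, adjusted p = 0.977). At 24 h in KO2 it had 29.7, 35.6 and 44.2 CPM in KO against 32.4, 45.02 and 53.6 CPM in WT, with overlap. That call (-0.34 ± 0.11, adjusted p = 0.0386) was lost with DESeq2 size factors (adjusted p = 0.0538), with no filter (0.0881) and with library totals (0.0785).

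The protease gene Casp1 was higher in F121A at 6 h, with 259.8, 272 and 297 CPM against 214, 226 and 276 CPM in WT, and at 24 h, with 367, 385 and 458 CPM in F121A against 291, 316 and 367 CPM in WT. The groups overlapped at 6 h and not at 24 h. The log2 fold changes were 0.31 ± 0.09 (adjusted p = 0.0170) and 0.35 ± 0.09 (adjusted p = 0.0103), and both calls were lost with no filter (adjusted p = 0.274 and 0.114) and with library totals (0.145 and 0.0859), and the 6 h call also with only the 2 groups fitted (0.0543). Casp1 was not called in KO2 (-0.10 to 0.15) or KO1 (-0.07 to 0.41). Casp4 was higher in KO2 KO at 24 h, with 91.8, 104 and 119 CPM against 70.03, 79.2 and 100.2 CPM in WT, and 5 of 8 KO libraries stood above every WT library (0.40 ± 0.12, adjusted p = 0.0150). In KI at 24 h Casp4 had 161, 182 and 219 CPM in F121A against 147, 151 and 165 CPM in WT (0.32 ± 0.13, adjusted p = 0.153). In KO1 at rest, the 3 KO cultures stood above the 3 WT cultures for Casp4, at 28.1, 32.3 and 33.6 CPM in KO against 13.4, 18.6 and 23.5 CPM in WT, and for Casp1, at 89.96, 90.5 and 95.5 CPM in KO against 56.3, 59.2 and 78.3 CPM in WT, without a call for either. Single repeats of KO culture S37 ran from 20.1 to 51.4 CPM for Casp4 and from 45.7 to 131.7 CPM for Casp1, into the WT range for both. Gsdmd, the pore gene, was called in no genotype comparison, and its log2 fold changes lay between -0.28 and 0.31. In KI at 6 h it had 296, 333 and 369.8 CPM in F121A against 215, 282 and 309 CPM in WT (0.30 ± 0.11, adjusted p = 0.0820).

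Markers of cell types moved with genotype beside these results. The summed level of 11 macrophage markers, which include Lyz2, was 26385 to 31749 CPM in KO2 KO against 51347 to 60515 CPM in WT at 0 h, 19948 to 24905 against 26748 to 32768 at 6 h, and 14720.2 to 17058 against 24618 to 28712 at 24 h. None of the 11 was at 0 in a whole group. Lyz2 itself, whose locus holds the Cre in KO mice, differed by -1.52, -1.71 and -1.31 in KO2 and is part of that sum. A sum without Lyz2 was not formed. In KI, Lyz2 differed by -0.29, -0.13 and -0.52 at 0, 6 and 24 h, and edgeR called it at 24 h only. The sum of 12 neutrophil markers was 90.7 to 166 CPM in KO2 KO against 68.1 to 94.9 CPM in WT at 24 h, with Mpo, Elane, Ngp and Retnlg at 0 in all KO libraries and Mpo, Elane and Retnlg in all WT libraries. The sum of 6 monocyte markers in KO2 was 12.01 to 25.5 CPM in KO against 4.62 to 12.3 CPM in WT at 0 h, with none at 0 throughout, and 18.5 to 26.2 CPM in KO against 6.70 to 12.5 CPM in WT at 24 h, without overlap, with Cd177 and F13a1 at 0 in all KO libraries and Cd177 in all WT libraries. The sum of 7 dendritic cell markers in KO2 at 6 h was 35.2 to 57.9 CPM in KO against 18.4 to 27.4 CPM in WT, without overlap and mostly from Ccr7, with none at 0 throughout. In KO1 the macrophage sum at 24 h was 12977 to 14010.1 CPM in KO against 17194 to 20352 CPM in WT, and the dendritic cell sum 32.3 to 40.04 CPM in KO against 54.9 to 71.1 CPM in WT. In KI the macrophage sum was 71976 to 110852 CPM in F121A against 109888 to 114256 CPM in WT at 0 h and 17638 to 20053 against 21168 to 23741 at 24 h, and the dendritic cell sum at 24 h was 56.5 to 70.7 in F121A against 71.5 to 175 in WT. The sum of 7 T cell markers in KI at 6 h was 63.3 to 74.6 CPM in F121A against 41.01 to 53.6 CPM in WT, without overlap and nearly all from Lck, with Cd3e, Cd3g and Trac at 0 in all libraries of both groups. The lowest resting macrophage sum belonged to F121A replicate 5, and the median over the 6 F121A libraries (102454 CPM) was also below every WT library. Without replicate 5, the fit over 6 groups still called Il1b and Il1rn at rest in KI (1.31 and 1.05). It also called Il1a (2.03), which entered that fit through its stimulated groups and rests on few reads. With replicate 5 kept, a fit of only the 2 resting groups did not test Il1a and called neither Il1b nor Il1rn. The part of the markers in the results was not tested.

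Whether a genotype effect changed with time was tested as an interaction. In KO2, 4 of the 10 genes passed (11.9% of all genes). The effect on Il1a at 6 h and 24 h was 0.42 and 2.34 above its effect at 0 h (adjusted p = 2.2e-10), that on Il18bp differed from it by -1.19 and -1.93 (adjusted p = 1.0e-10), that on Il1rn differed by -1.04 and 0.44 (adjusted p = 4.2e-09) and that on Pycard by -0.59 and -0.25 (adjusted p = 0.0132). In KI, 4 passed as well (8.29% of all genes). The effect on Il1a at 6 h and 24 h differed from that at rest by -2.58 and -2.80 (adjusted p = 7.6e-05), on Il1b by -1.66 and -1.65 (adjusted p = 0.00223), on Il1rn by -0.97 and -1.18 (adjusted p = 0.0215) and on Pycard by 0.63 and -0.14 (adjusted p = 0.0188). Both Il1a contrasts are set against resting values of few counts, 0 to 4 in KO against 0 to 3 in WT of KO2 and 5 to 35 in F121A against 0 to 4 in WT of KI, so their sizes rest on few reads. The Pycard call in KO2 was lost with no filter and with summed libraries (adjusted p up to 0.107), the Pycard call in KI with library totals (0.0573) and the Il1rn call in KI with summed libraries (0.114). In KO1 edgeR called 0 of the 10 (0% of all genes), with 1 at an unadjusted p under 0.05 and 0 by DESeq2.

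The effect of the KO2 deletion was also set against that of the F121A change in a joint fit of both cohorts, in which positive values mean a higher ratio of mutant to WT in KO2. At rest, where 3.87% of all genes were called, Il18bp differed by 1.76 ± 0.19 (adjusted p = 6.0e-12). At 6 h 4 genes differed (12.2%): Il1a by 1.88 ± 0.22 (adjusted p = 8.1e-11), Pycard by -1.29 ± 0.17 (adjusted p = 6.3e-09), Il18bp by 0.69 ± 0.17 (adjusted p = 0.00153) and Gsdmd by -0.47 ± 0.14 (adjusted p = 0.0194). The Gsdmd call was lost with no filter (adjusted p = 0.117), with summed libraries (0.101) and with library totals (0.253). At 24 h 4 genes differed (7.1%): Il1a by 3.98 ± 0.23 (adjusted p = 6.4e-26), Il1rn by 1.14 ± 0.23 (adjusted p = 2.2e-04), Il1b by 1.34 ± 0.30 (adjusted p = 9.7e-04) and Nlrp3 by 1.02 ± 0.26 (adjusted p = 0.00517). By Ddx3y and Xist the KO2 genotypes differ in sex, whereas in KI libraries of both genotypes carried Xist. The deletion and sex therefore cannot be told apart in this joint fit.

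A wider list of 57 receptors, signalling proteins, other sensors and cell death genes was chosen by function, with earlier results known, and 52 are in the tables. In KO2, 41 were tested, of which 4 were higher and 1 lower in KO at 0 h (3.84% and 4.45% of all genes), 2 higher and 2 lower at 6 h (7.62% and 7.75%), and 3 higher and 3 lower at 24 h (6.26% and 5.06%). With library totals the counts were 8 higher and 0 lower at 0 h, 10 higher and 1 lower at 6 h and 3 higher and 3 lower at 24 h. Txnip, which encodes a thioredoxin-binding protein known to bind NLRP3, was lower in KO2 KO at 0, 6 and 24 h (-0.41 ± 0.10, -0.67 ± 0.11 and -0.74 ± 0.11, adjusted p = 0.00492, 3.4e-06 and 3.9e-07), the 0 h call being lost with library totals. At 24 h it had 50.5, 60.8 and 68.7 CPM in KO against 81.3, 108 and 126 CPM in WT, without overlap. Zbp1, a sensor of left-handed nucleic acids, was higher at rest (1.40 ± 0.17, adjusted p = 4.3e-09), with 7.52, 19.3 and 25.6 CPM in KO against 2.41, 6.19 and 11.98 CPM in WT. The other calls at rest were Nlrc5 (0.80 ± 0.18, adjusted p = 0.00119), Mlkl, the effector of necroptosis (0.44 ± 0.12, adjusted p = 0.0107), and Mefv, the gene of the sensor pyrin (0.63 ± 0.18, adjusted p = 0.0171). At 6 h they included Serpinb9 (0.51 ± 0.09) and Ninj1, which acts in membrane rupture (-0.34 ± 0.11). At 24 h the sensor gene Nlrp1b (-1.32 ± 0.23, adjusted p = 3.0e-05) and the necroptosis kinase gene Ripk3 (-0.86 ± 0.15, adjusted p = 3.3e-05) were lower in KO. Ripk3 had 13.8, 21.2 and 24.6 CPM in KO against 32.3, 36.8 and 46.3 CPM in WT, without overlap.

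In KI, 44 genes of the wider list were tested, of which 2 were higher and 0 lower in F121A at 0 h (2.37% and 0.574% of all genes), 9 higher and 1 lower at 6 h (8.01% and 3.49%), and 4 higher and 0 lower at 24 h (3.42% and 3.78%). With library totals the counts were 3 higher at 0 h, 4 higher and 2 lower at 6 h and 1 higher at 24 h. Zbp1 (0.59 ± 0.13, adjusted p = 0.00558) and the membrane channel gene Panx1 (0.62 ± 0.18, adjusted p = 0.0381) were higher at rest. At 6 h the smallest adjusted p belonged to Txnip (0.54 ± 0.12, adjusted p = 0.00128), to Serpinb1a, an inhibitor of serine proteases (0.88 ± 0.19, adjusted p = 0.00145), and to Irak3, known as a brake on signalling by interleukin-1 and Toll-like receptors, which was lower (-0.43 ± 0.10, adjusted p = 0.00211). At 24 h Casp8 (0.32 ± 0.07, adjusted p = 0.00289), Ripk3 (0.46 ± 0.11, adjusted p = 0.00316), Nlrc5 (0.29 ± 0.09, adjusted p = 0.0290) and Serpinb1a (0.59 ± 0.18, adjusted p = 0.0380) were higher. Ripk3 had 52.1, 59.9 and 63.7 CPM in F121A against 37.7, 43.9 and 48.4 CPM in WT at 24 h, without overlap. The KO2 effect minus the KI effect was -1.32 ± 0.20 (adjusted p = 1.8e-07) for Ripk3 at 24 h, and -1.18 ± 0.16 (adjusted p = 1.9e-08) at 6 h and -1.06 ± 0.16 (adjusted p = 2.3e-07) at 24 h for Txnip. In KO1, edgeR called 0 of 46 at each time, with 2, 5 and 5 at an unadjusted p under 0.05.

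At 6 h against 0 h in WT, 22 genes of the wider list were higher and 10 lower in KO1 (25.7% and 31.1% of all genes), 23 higher and 12 lower in KO2 (32.5% and 38.3%) and 26 higher and 11 lower in KI (36.7% and 36.8%). With library totals the split was nearly even, at 19 higher and 18 lower in KO1, 20 and 18 in KO2 and 19 and 21 in KI. By smallest adjusted p the first were Cflar (4.76), the adaptor gene Myd88 (3.19) and Nod1 (4.42) in KO1, Zbp1 (7.06), Mlkl (4.68) and Myd88 (3.51) in KO2, and Nlrc5 (4.84), Zbp1 (6.86) and Mlkl (5.75) in KI.

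The genes whose pattern was most like Il1b, by Pearson's r over the 18 group means of log2 CPM and among 5911 genes tested in every cohort, were Irg1 (r = 0.995), Gbp3 (0.994), Cxcl10 (0.992), Gbp5 (0.992) and Nos2 (0.991). For Il18bp they included Psmb8 (0.981), H2-Q4 (0.976), Gm4951 (0.975) and H2-Q5 (0.968), and for Il18 they were Vcam1 (0.983), Katna1 (0.979), Pmpcb (0.979), Prpf38a (0.978) and Acot9 (0.978). Within the 10 genes, Il1b had r = 0.987 with Il1a, 0.979 with Il1rn and 0.078 with Pycard. These values are descriptions: the 18 means share the stimulus and the libraries, and with Spearman's rho 0, 2 and 2 of the 5 genes most like Il1b, Il18bp and Il18 stayed among the first 5.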

How the data were processed

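RNA was measured by Smart-Seq2 (oligo-dT priming, paired reads, no molecular barcodes, no strand) in 137 libraries. KO1 holds 54 of them, KO2 47 and KI 36. Raw counts per gene symbol, whole numbers in a table for each cohort, were deposited. Per the submitters' processing notes they came from TopHat and HTSeq on mm10, and versions are not given in the sources used here. KO1 repeats were summed to 18 cultures. Each cohort was fitted once in edgeR 4.0.16 (filterByExpr, TMM, quasi-likelihood test, 6 group means), with Benjamini-Hochberg adjustment over all genes tested, in R 4.3.3. Alternatives used DESeq2 1.42.0, other scaling, filters, units and left-out samples, and library totals were added after the data were seen. The 10 genes and the lists were chosen with earlier results of these data known. Named genes are the 10, Becn1 and Lyz2, up to 3 called genes of the wider list per comparison (all where 5 or fewer), and the 5 most like Il1b, Il18bp and Il18. Ddx3y and Xist were added as a check. Some genes that this rule names are not reported here. Copies were sought in 467 pairs of libraries within groups, and the least different pair still had 3.22 times the chi-square that sampling gives. Replicate numbers count as paired in KO1 KO between 6 h and 24 h, where deviations from the group means of same-numbered cultures correlated in all 3 pairs (r of 0.132 to 0.269). In KO1 WT between 6 h and 0 h the r was 0.0903 to 0.322, with 2 pairs over the threshold of 0.1. The KO1 culture numbers recur at every time, and the main fit, its interaction test included, has no term for them. The labels of 2 samples conflict in time. They were grouped by title, and leaving them out changed no call among the 10 genes. The fits were tested on simulated data.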

Additional observations from a re-analysis of the deposited data

Results flagged for a closer look

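Of 120 groups of 4 to 10 libraries tested over the 10 genes, 3 had a library far from the others, and chance flags about 1 group in 20. Casp1 in KI WT at 6 h had 276 CPM in replicate 5, against 237 CPM in the next library and a median of 226. Gsdmd in F121A at 0 h had 80.6 CPM in replicate 5, against 139 CPM in the next library and a median of 145. Il18bp in KO2 KO at 24 h had 1057 CPM in replicate 1, against 898 CPM in the next library and a median of 858.

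The genotype effect differed between times in edgeR's joint interaction test for 4 genes in each of 2 cohorts. In KO2 the adjusted p was 1.0e-10 for Il18bp, 2.2e-10 for Il1a, 4.2e-09 for Il1rn and 0.0132 for Pycard. In KI it was 7.6e-05 for Il1a, 0.00223 for Il1b, 0.0188 for Pycard and 0.0215 for Il1rn.

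The KO2 effect differed from the KI effect in a joint edgeR fit. On the log2 scale the difference was 1.76 for Il18bp at rest. At 6 h it was 1.88 for Il1a, -1.29 for Pycard, 0.69 for Il18bp and -0.47 for Gsdmd. At 24 h it was 3.98 for Il1a, 1.34 for Il1b, 1.14 for Il1rn and 1.02 for Nlrp3.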

How the results depend on the processing

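Of 3207 values of the 10 genes under alternatives, 3042 kept direction and call, 53 lost the call, 66 gained it and 46 changed sign. None of the sign changes was in a called value, and 1 was called under the alternative. Of 321 counts of calls, 14 moved by more than 1.5 times. The cause was not tested unless fewer genes or samples follow from the alternative itself.

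In KO1 the count of calls between genotypes, 0 at each time, was 1 at 0 h with DESeq2, 2 at 0 h and 1 at 24 h with no filter, and 3, 1 and 2 at 0, 6 and 24 h with single libraries as units, where genotype by time gave 1. Between 24 h and 6 h, leaving out 1 culture gave 4 to 8 calls in KO1 KO and 5 to 10 in KO1 WT. Leaving out 1 culture moved KO1 log2 fold changes across 0, from -0.21 to 0.11 (Nlrp3) and -0.25 to 1.68 (Il18bp) at 0 h, -0.41 to 0.30 (Casp1), -0.19 to 0.41 (Casp4), -0.0848 to 0.26 (Gsdmd) and -0.10 to 1.02 (Il18bp) at 6 h, and -0.0012 to 0.35 (Casp1) and -0.30 to 0.0642 (Il18bp) at 24 h. With no filter Casp1 at 6 h in KO1 was 0.0085.

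In KI the 3 calls at rest became 0 with only the 2 groups fitted, where Il1a was not tested, and the 2 calls at 24 h became 1 with no filter and 1 with library totals. Small KI values turned negative at rest for Nlrp3 (-0.0172 with DESeq2, -0.0214 with no filter, -0.0217 with the replicate block and -0.0146 with size factors) and Pycard (-0.0076 with DESeq2, -0.0139 with no filter and -0.0084 with size factors), and at 24 h for Il1rn (-0.0030 with only the groups compared, -0.0027 with summed libraries). Without F121A 0 h replicate 5, Casp1 was 0.0039 and Il18 0.0685 at rest in KI, and in KO2 minus KI Casp4 was 0.13 at 0 h and Il18bp -0.0088 at 24 h.

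With library totals, which move the median of all genes by up to 0.24 between genotypes, KO2 had 5 calls at 0 h and 7 at 6 h (3 and 3 with TMM). Values that changed sign were Nlrp3 0.0148 at 0 h and Gsdmd -0.0684 at 6 h in KO1, Pycard -0.91 at 6 h against 0 h in KO1 KO, Pycard 0.10 and Casp1 0.0853 at 0 h and Gsdmd 0.0106 at 6 h in KO2, Casp1 0.0496 and Il18 0.0456 at 0 h and Il1rn -0.0211 at 24 h in KI, and Pycard 0.0421, Casp1 0.0356 and Casp4 0.11 at 0 h and Casp1 0.13 at 6 h in KO2 minus KI. Summed libraries gave Nlrp3 -0.0211 at 6 h in KO2, and Casp4 0.0041 at 0 h and -0.022 at 6 h in KO2 minus KI. With the replicate block, Nlrp3 at 6 h in KO2 was -0.0278, Gsdmd at 6 h in KI passed (0.31), as it did under none of the other 8 of 9 alternatives, KO1 WT had 10 calls between 24 h and 6 h in place of 9, and no other genotype call among the 10 genes changed. Likeness by Spearman's rho kept 0, 2 and 2 of 5 genes. Counts of 0 to 4 per library limit Il1a at rest in KO2 and in KI WT.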
